A study of Mus musculus with 4 samples.

Results

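The genes described here encode the proteins of the cytosolic ribosome. They were chosen by symbol from the deposited gene lists: Rpl or Rps followed by a digit, or Rplp0, Rplp1, Rplp2 or Rpsa. The 5 pseudogene symbols written with -ps and the 10 kinase symbols beginning with Rps6k were left out. The rule took 86 of 32285 genes, of which 52 carry large subunit symbols and 34 small subunit symbols. It also took Rps19bp1, which is no ribosomal protein gene and encodes a protein that binds Rps19.

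The cells came from livers of male mouse offspring, and RNA was counted with the 10x Genomics 3′ droplet method, in which each captured molecule carries a unique molecular identifier (UMI). There were 4 groups: adults at 8 weeks from intrauterine hyperglycemia mothers (IHG), adults from control mothers (Ctrl), fetuses at E18.5 from IHG mothers, and fetuses at E18.5 from Ctrl mothers. The labels name no strain and do not say how the hyperglycemia was brought about. Each group is 1 library, made from the pooled fetuses of 3 pregnant mice or from 3 pooled adults. Adult livers were perfused before all livers were digested with enzymes and treated to remove red cells. Because every group is a single library, no difference between groups could be tested or checked in a replicate. All intervals below are exact 95% intervals of counting error alone, so spread between animals, digestions or captures is outside them.

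A ribosome is built from a small subunit, which reads the mRNA, and a large subunit, which joins amino acids, and each holds a single copy of most of its proteins. The mRNAs of these proteins are among the most abundant in growing cells, and many begin with a run of pyrimidines after a first C, the 5′ terminal oligopyrimidine (TOP) motif, through which mTOR signalling controls their translation. The fetal liver is the main site of blood formation before birth, and red cell precursors are the cells in which human mutations of ribosomal protein genes show most clearly, as Diamond-Blackfan anaemia.

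The first bases of the members that the results below turn on are shown because a TOP start is the sequence feature that ribosomal protein mRNAs are best known to share. Each line holds 10 bases before and 20 bases from the transcript start that RefSeq lists on GRCm38.p6, 5′ to 3′ on the gene's strand, with capitals marking the unbroken run of C and T that begins at a listed start with a C. The windows lie at chr3:90213629-90213658 on the minus strand for Rps27, chr9:114982720-114982749 on the minus strand for Rps27rt, chr11:114668570-114668599 on the plus strand for Rpl38, chr2:39005112-39005141 on the minus strand for Rpl35, chr14:18270967-18270996 on the minus strand for Rpl15, chr5:115559457-115559486 on the plus strand for Rplp0, chr3:28805498-28805527 on the plus strand for Rpl22l1 and chr9:66946076-66946105 on the plus strand for Rps27l.
Rps27: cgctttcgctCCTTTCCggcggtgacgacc
Rps27rt: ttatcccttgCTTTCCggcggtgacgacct
Rpl38: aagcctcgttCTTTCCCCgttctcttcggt
Rpl35: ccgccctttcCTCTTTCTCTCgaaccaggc
Rpl15: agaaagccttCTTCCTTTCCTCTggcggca
Rplp0: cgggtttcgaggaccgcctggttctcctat
Rpl22l1: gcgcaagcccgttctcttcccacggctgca
Rps27l: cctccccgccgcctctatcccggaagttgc

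A start with C and at least 4 further bases that are all C or T, searched on the gene's own strand at the listed start, was found in 14 of the 66 members with a listed start (21.2%). Among all genes with a listed start it was found in 813 of 27025 (3.01%). It was found in 0 of 69 mitochondrial ribosomal protein genes and 0 of 27 listed ribosome biogenesis genes. A run of at least 8 C or T lying near the start, rather than exactly on it, was found in 24 of the 66 members (36.4%) and in 13.01% of all genes. Of the lines above, Rps27, Rps27rt, Rpl38, Rpl35 and Rpl15 carry the start, and Rplp0, Rpl22l1 and Rps27l do not at the listed position. A match describes these letters only, and the absence of a match says nothing of the transcript starts used in liver.

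After filtering, 6500 adult IHG, 4951 adult Ctrl, 7925 fetal IHG and 7594 fetal Ctrl cells were kept, with medians of 2220.5, 2514, 9709 and 7402.5 UMIs per cell in that order. Pairs of libraries shared 8 to 26 cell barcodes. Cells were clustered without the ribosomal protein genes and clusters were called "X-like" from marker lists. The adult libraries held no hepatocyte-like cluster, and the hepatocyte list made up 0.0245% of UMIs in adult IHG and 0.057% in adult Ctrl, so the adult values below describe immune and other non-parenchymal cells. Haemoglobin RNA made up 20.01% of UMIs in fetal IHG and 35.1% in fetal Ctrl, and its share of a class's UMIs is given with the fetal shares below.

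Ribosomal protein genes supplied 27.8% of all UMIs in adult IHG (95% interval 27.8 to 27.8) and 27.2% in adult Ctrl (27.2 to 27.3). In fetal IHG they supplied 19.7% (19.7 to 19.7), against 16.9% in fetal Ctrl (16.9 to 16.9). The fetal direction depended on haemoglobin: without haemoglobin and mitochondrially encoded genes in the total, the shares were 25.3% in fetal IHG and 26.8% in fetal Ctrl, and 28.7% in adult IHG and 28.3% in adult Ctrl. The median cell likewise had the lower share in fetal IHG, at 14.8%, against 17.8% in fetal Ctrl, while the 5th to 95th percentiles of cells ran from 1.40% to 37.5% in fetal IHG and from 0.960% to 38.5% in fetal Ctrl. Cells within a library therefore differed far more than the libraries did. The libraries also differed in cell make-up, for which these shares are not adjusted. The largest fetal B-like cluster held 353 IHG and 954 Ctrl cells, and the largest fetal neutrophil-like one 661 and 246. The largest adult B-like cluster held 1677 IHG and 710 Ctrl cells. Though the adult library share was the higher in IHG, only 1 of 8 adult classes was. The part of cell make-up was not tested.

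Of the 86 members, 85 had UMIs in every library, and Rpl10l, a paralog of Rpl10, had 0 UMIs in all 4. The most abundant members differed between ages. Counts of 3′ UMIs are counts of captured molecules, so levels of different members are given without a correction for length. In adult IHG the first 5 were Rps24 (11536 CPM, the gene's UMIs scaled to one common total of UMIs per library or class), Rps29 (8925), Rpl37a (8090), Rps27 (7500) and Rps20 (7176). In adult Ctrl they were Rps24 (10572 CPM), Rps29 (8316), Rpl37a (7355), Rpl41 (7115) and Rps27 (6454). In fetal IHG they were Rps2 (5666 CPM), Rps27a (5080), Rpl13 (4925), Rplp0 (4915) and Rps20 (4883). In fetal Ctrl the first 4 were Rpl41 (5086 CPM), Rps2 (4163), Rps24 (4002) and Rps27a (3877). Large subunit UMIs exceeded small subunit UMIs in each library, by ratios of 1.17 in adult IHG, 1.18 in adult Ctrl, 1.18 in fetal IHG and 1.23 in fetal Ctrl.

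**Figure D1:**
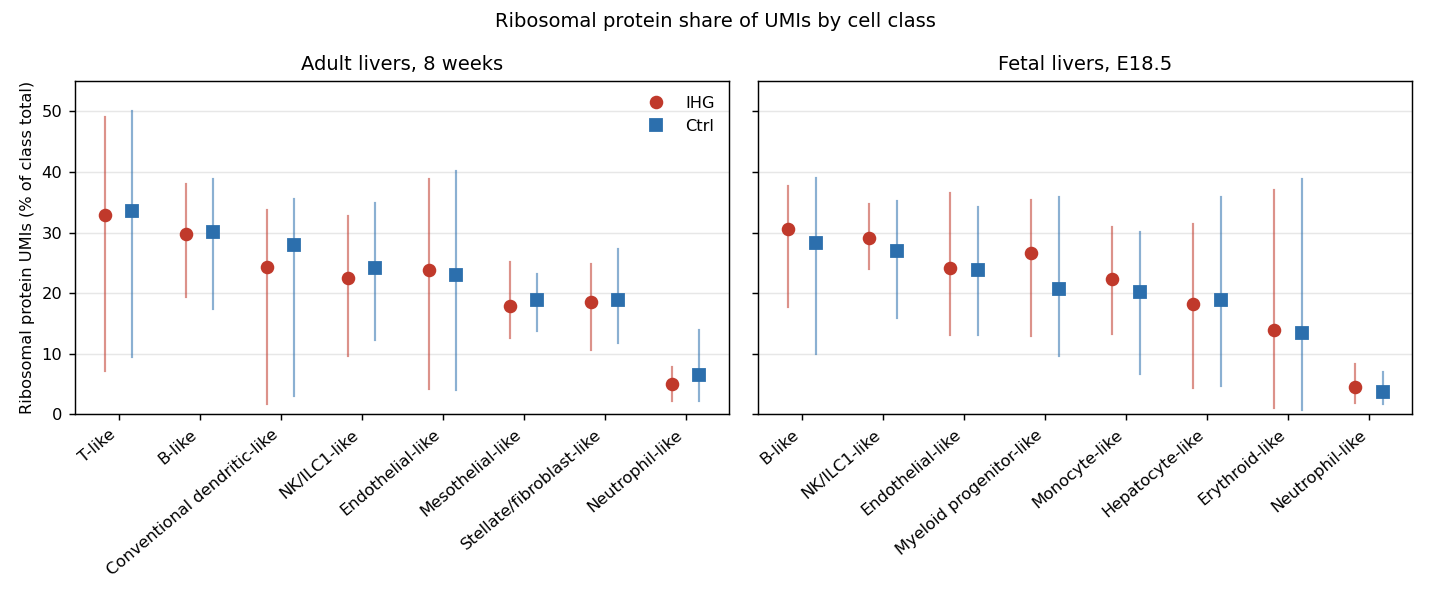
Percent of UMIs from ribosomal protein genes (y axis) in each class with at least 30 cells in both libraries of an age (x axis), adult classes at the left and fetal classes at the right, IHG as red circles and Ctrl as blue squares. Points are summed shares and bars run from the 5th to the 95th percentile of cells. Neutrophil-like cells sit lowest at both ages, T-like cells (33.0% and 33.6%) highest in adults and B-like cells (30.6% and 28.3%) highest in fetuses.

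Cell classes differed in ribosomal protein share by far more than IHG and Ctrl did within a class. Among adult classes, T-like cells had the highest share, 33.0% in IHG and 33.6% in Ctrl, followed by B-like cells at 29.8% and 30.1%. Conventional dendritic-like cells had 24.4% in IHG and 28.0% in Ctrl, endothelial-like cells 23.9% and 23.1%, and NK/ILC1-like cells 22.6% and 24.1%. Stellate/fibroblast-like cells (18.6% and 18.8%) and mesothelial-like cells (17.9% and 18.9%) lay below these. Neutrophil-like cells had the lowest share, 5.02% in IHG and 6.59% in Ctrl. The IHG share was the higher in 1 of 8 adult classes, endothelial-like cells, whose log2 ratio of 0.05 was -0.06 with cells thinned to 1000 UMIs and -0.05 with doublets kept. Thinning gave 0.01 for B-like and for stellate/fibroblast-like cells, and clustering each library by itself gave 0.11 for mesothelial-like, 0.04 for stellate/fibroblast-like and 0.01 for T-like cells, on the other side of 0 from the main values. In 6 of the 8 adult classes the log2 ratio lay between -0.10 and 0.05, and the other 2 were conventional dendritic-like cells at -0.20 and neutrophil-like cells at -0.39 (107 IHG and 187 Ctrl cells).

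Among fetal classes, B-like cells had 30.6% in IHG and 28.3% in Ctrl, and NK/ILC1-like cells had 29.1% and 27.0%. Myeloid progenitor-like cells had 26.6% in IHG and 20.7% in Ctrl, the widest fetal gap, with a log2 ratio of 0.37. Endothelial-like cells had 24.1% and 23.9%, monocyte-like cells 22.4% and 20.2%, and hepatocyte-like cells 18.2% and 18.9%. Erythroid-like cells had 14.0% in IHG and 13.5% in Ctrl, with haemoglobin at 53.03% and 56.3% of their UMIs. Neutrophil-like cells were again lowest, at 4.49% and 3.76%. The share was the higher in IHG in 7 of 8 fetal classes, and in 4 of 8 without haemoglobin and mitochondrial genes in the total. Haemoglobin outside the erythroid class was also the lower in IHG, at 1.74% in IHG and 7.98% in Ctrl for B-like cells and 1.85% and 15.9% for hepatocyte-like cells. It was 0.635% and 9.17% in NK/ILC1-like cells, 1.11% and 7.66% in monocyte-like cells, 2.39% and 6.75% in endothelial-like cells, 1.01% and 3.19% in neutrophil-like cells and 1.21% and 1.80% in myeloid progenitor-like cells. Without haemoglobin and mitochondrial genes the log2 ratio of B-like cells was 0.02 in place of 0.11, that of NK/ILC1-like cells -0.01 in place of 0.11, and that of hepatocyte-like cells -0.25 in place of -0.06. Other settings turned some of these directions, with -0.08 for erythroid-like cells when each cell was thinned to 1000 UMIs, and -0.05 for endothelial-like and 0.01 for hepatocyte-like cells with doublets kept.

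The myeloid progenitor gap did not move with haemoglobin, since its log2 ratio was 0.37 with either total. It moved with the way cells were assigned: when each library was clustered by itself, the ratio was 0.07. The class held 472 IHG and 104 Ctrl cells, and ribosome biogenesis genes made up 0.374% of its UMIs in IHG and 0.223% in Ctrl. Whether the 2 libraries hold the same stages of this class was not tested. The fetal neutrophil ratio was likewise unstable, at 0.26 with both libraries clustered together, -0.04 with doublets kept and -0.30 with each library clustered by itself. Within each of its 4 clusters the IHG share was the higher, at 6.05%, 3.79%, 2.70% and 2.56% in IHG, against 5.30%, 3.26%, 2.49% and 2.44% in Ctrl.

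**Figure D2:**
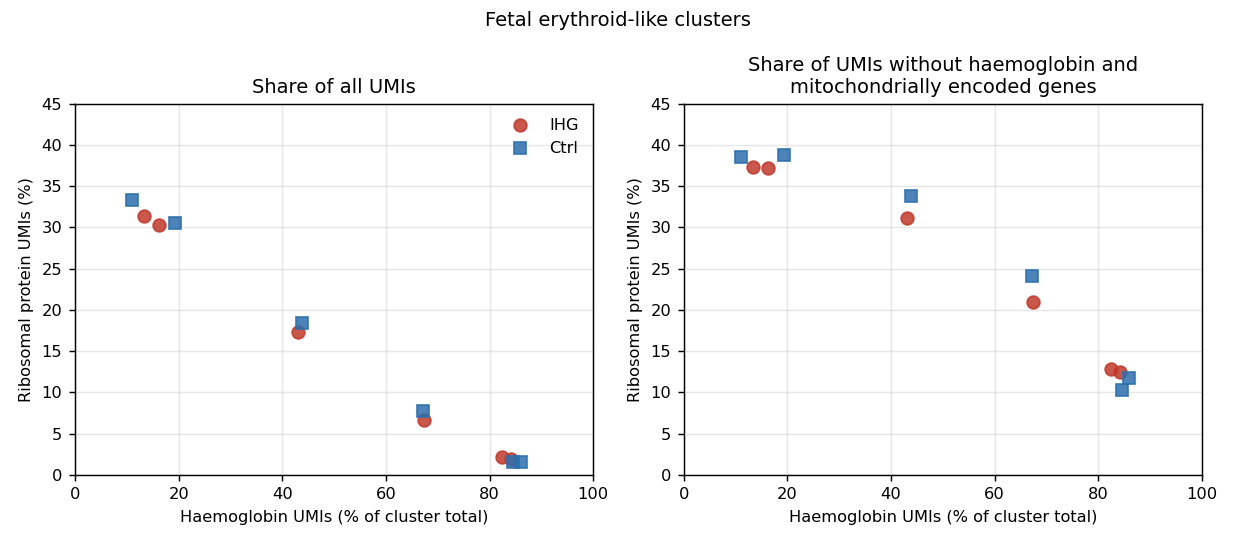
Ribosomal protein percent of UMIs (y axis) against haemoglobin percent of UMIs (x axis) in the 6 fetal erythroid-like clusters, with all UMIs as total at the left and without haemoglobin and mitochondrial genes at the right, IHG as red circles and Ctrl as blue squares. Clusters with more haemoglobin have the lower ribosomal protein share in both panels, from 31.3% to 1.93% in IHG and from 33.3% to 1.53% in Ctrl at the left.

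The fetal erythroid-like clusters differed widely in ribosomal protein share. In the cluster with the least haemoglobin, led by Fabp5 and Tmem14c, the share was 31.3% in IHG and 33.3% in Ctrl, with haemoglobin at 13.29% in IHG and 11.004% in Ctrl. The next clusters along the haemoglobin scale had shares of 30.3% in IHG and 30.5% in Ctrl, then 17.26% in IHG and 18.46% in Ctrl, then 6.67% and 7.68%. The clusters led by Bpgm, Xpo7 and Tmcc2, in which haemoglobin made up 82.4% to 86.0% of UMIs, had shares of 2.21% and 1.93% in IHG, against 1.53% and 1.58% in Ctrl. More haemoglobin lowers every other share in the same total, so the shares were also taken without it. They then ran from 37.3% in IHG and 38.6% in Ctrl in the cluster with least haemoglobin to 12.5% and 11.7% in the cluster with most. The first 4 clusters had the lower share in IHG and the last 2 the higher share in IHG, with either total. These values share the same 2 libraries and are not independent of each other.

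Other clusters varied within their class in a like way. The highest share of any fetal cluster, 36.6% in IHG and 36.2% in Ctrl, was in an unnamed cluster led by C1qtnf12, Hspd1 and Car1, of 432 IHG and 105 Ctrl cells with medians of 36759 and 33452 UMIs. Among fetal B-like clusters the share ran from 34.4% in IHG and 30.9% in Ctrl, in the cluster led by Crip1 and Igll1, to 26.9% and 24.5% in the cluster led by Vpreb1 and Igll1, and all 4 were the higher in IHG. Different clusters held most B-like cells in the 2 libraries, and the mean of the cluster ratios was 0.14 on the log2 scale, against 0.11 for the summed class. These B-like values count haemoglobin in the total. Without haemoglobin and mitochondrial genes the ratio of the summed class was 0.02. Among adult T-like clusters, the cluster led by Lef1, Dusp10 and Tcf7 (Lef1 and Tcf7 are transcription factors of naive T cells) had the highest share of any adult cluster, 39.9% in IHG and 42.0% in Ctrl.

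Members also differed between cell classes in their part of the ribosomal protein total, a measure that haemoglobin cannot alter. Apart from Rpl3l, which had enough UMIs in 2 libraries only, the most variable members were Rps9, Rps27l, Rpl36al, Rps27, Rps27a, Rpl10 and Rpl22l1, whose highest class exceeded the lowest by 2.57 to 3.80-fold in the median library. Rps9, a small subunit protein near the entry of the mRNA, made up 6.80% of ribosomal protein UMIs in adult IHG neutrophil-like cells and 4.79% in adult Ctrl ones. In fetal neutrophil-like cells it made up 2.82% in IHG and 2.76% in Ctrl. In the other classes it lay between 0.891% and 1.78%, so neutrophil-like cells stood apart in all 4 libraries. Rps27a, which encodes ubiquitin fused to a small subunit protein, was also at its highest in neutrophil-like cells, at 4.07% in adult IHG, 3.78% in adult Ctrl, 5.38% in fetal IHG and 5.21% in fetal Ctrl. The fetal myeloid progenitor-like class came next at 3.77% and 3.76%. Rpl10, a protein that joins the large subunit late in its assembly, had its lowest fetal part in myeloid progenitor-like cells, 0.336% in IHG and 0.323% in Ctrl, and its highest adult part in mesothelial-like cells, 0.998% in IHG and 1.10% in Ctrl. The least variable members were Rpl11, Rps16, Rps14, Rpl29 and Rps10, with folds of 1.27 to 1.32.

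**Figure D3:**
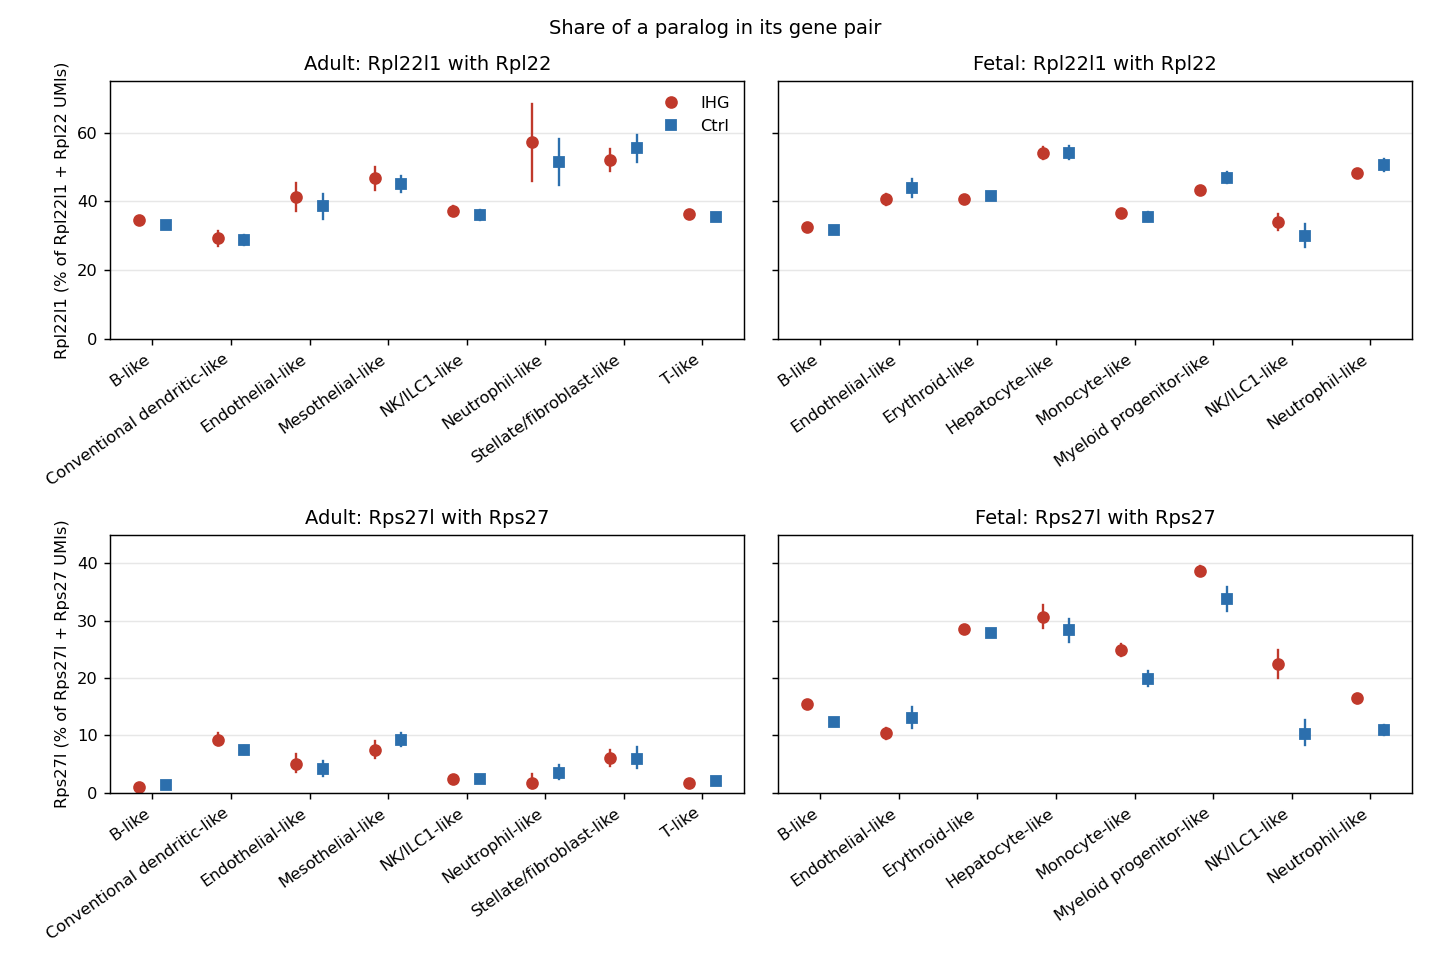
Percent of the UMIs of a pair that come from Rpl22l1 (with Rpl22) and from Rps27l (with Rps27) on the y axis, by class on the x axis, with adult classes left of fetal ones and IHG as red circles left of Ctrl as blue squares. Bars are 95% binomial intervals. Rpl22l1 passes 50% in hepatocyte-like and stellate/fibroblast-like cells, and in neutrophil-like cells of adult IHG, adult Ctrl and fetal Ctrl. Rps27l stays under 10% in the adult classes shown and reaches 38.7% in fetal IHG myeloid progenitor-like cells.

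Paralog pairs gave the clearest differences between classes. Rpl22l1 encodes a protein that can take the place of Rpl22, a large subunit protein that binds RNA outside the ribosome as well and that lymphocyte development depends on in mice. Rpl22l1 supplied 54.1% of the pair's UMIs in fetal IHG hepatocyte-like cells (52.3 to 55.9) and 54.2% in fetal Ctrl ones (52.3 to 56.0). In adult stellate/fibroblast-like cells it supplied 52.1% in IHG (49.0 to 55.3) and 55.5% in Ctrl (51.6 to 59.3). Neutrophil-like cells also lay high, with 57.3% in adult IHG (45.9 to 68.2, from 47 and 35 UMIs) and 51.5% in adult Ctrl (44.8 to 58.2). In fetuses they had 48.1% in IHG and 50.5% in Ctrl. Lymphoid classes had lower parts, with 34.5% in IHG and 33.2% in Ctrl for adult B-like cells and 36.4% and 35.4% for adult T-like cells. Fetal B-like cells had 32.7% and 31.7%. Some myeloid classes lay as low, with 36.7% in IHG and 35.6% in Ctrl for fetal monocyte-like cells. The lowest part in both adult libraries was in conventional dendritic-like cells, at 29.2% and 28.8%. The same classes thus lay high and low in IHG and in Ctrl.

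Rps27l, a p53 target in human and mouse cells, supplied the larger part of its pair in fetuses in each class found at both ages. It supplied 15.5% of its pair with Rps27 in fetal IHG B-like cells (14.99 to 15.95) and 12.4% in fetal Ctrl ones (12.1 to 12.7), against 1.05% in adult IHG B-like cells and 1.38% in adult Ctrl ones. Among fetal classes it was highest in myeloid progenitor-like cells, at 38.7% in IHG and 33.7% in Ctrl, and in hepatocyte-like cells at 30.7% and 28.3%. Among adult classes with values in both libraries it was highest in conventional dendritic-like and mesothelial-like cells, at 9.27% and 7.39% in IHG and at 7.38% and 9.15% in Ctrl. Adult Ctrl plasma-like cells, without a value in IHG, had 14.7% (12.5 to 17.1, from 139 and 807 UMIs), above fetal Ctrl B-like cells. The part was the higher in IHG in 7 of 8 fetal classes, endothelial-like cells (10.3% and 13.05%) being the exception, and Rps27 itself was the lower in IHG in all 8.

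The remaining paralogs were rare or tied to few classes. Rpl36al supplied 73.7% of its pair with Rpl36a in adult Ctrl plasma-like cells (71.2 to 76.0, from 991 and 354 UMIs in 31 cells), against 38.5% in adult Ctrl B-like cells. Adult IHG had only 20 plasma-like cells, too few for a value under the minimum of 30. Rpl3l, which is known from muscle, had 13 UMIs in adult IHG, 12 in adult Ctrl, 235 in fetal IHG and 140 in fetal Ctrl, and the cluster with the most of them was neutrophil-like in every library. Rpl39l, known from germ cells, had 13 UMIs in adult IHG, 3 in adult Ctrl, 95 in fetal IHG and 223 in fetal Ctrl. In fetal erythroid-like cells Rpl39l had 1 UMI in IHG and 64 in Ctrl, and the ratio's counting interval ran from -11.07 to -3.21 on the log2 scale. Rps27rt has a nearly identical sequence to Rps27 (the bases after their pyrimidine runs above are shared), so its counts are uncertain. In adult B-like cells it had 217 CPM in IHG and 321 CPM in Ctrl.

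**Figure D4:**
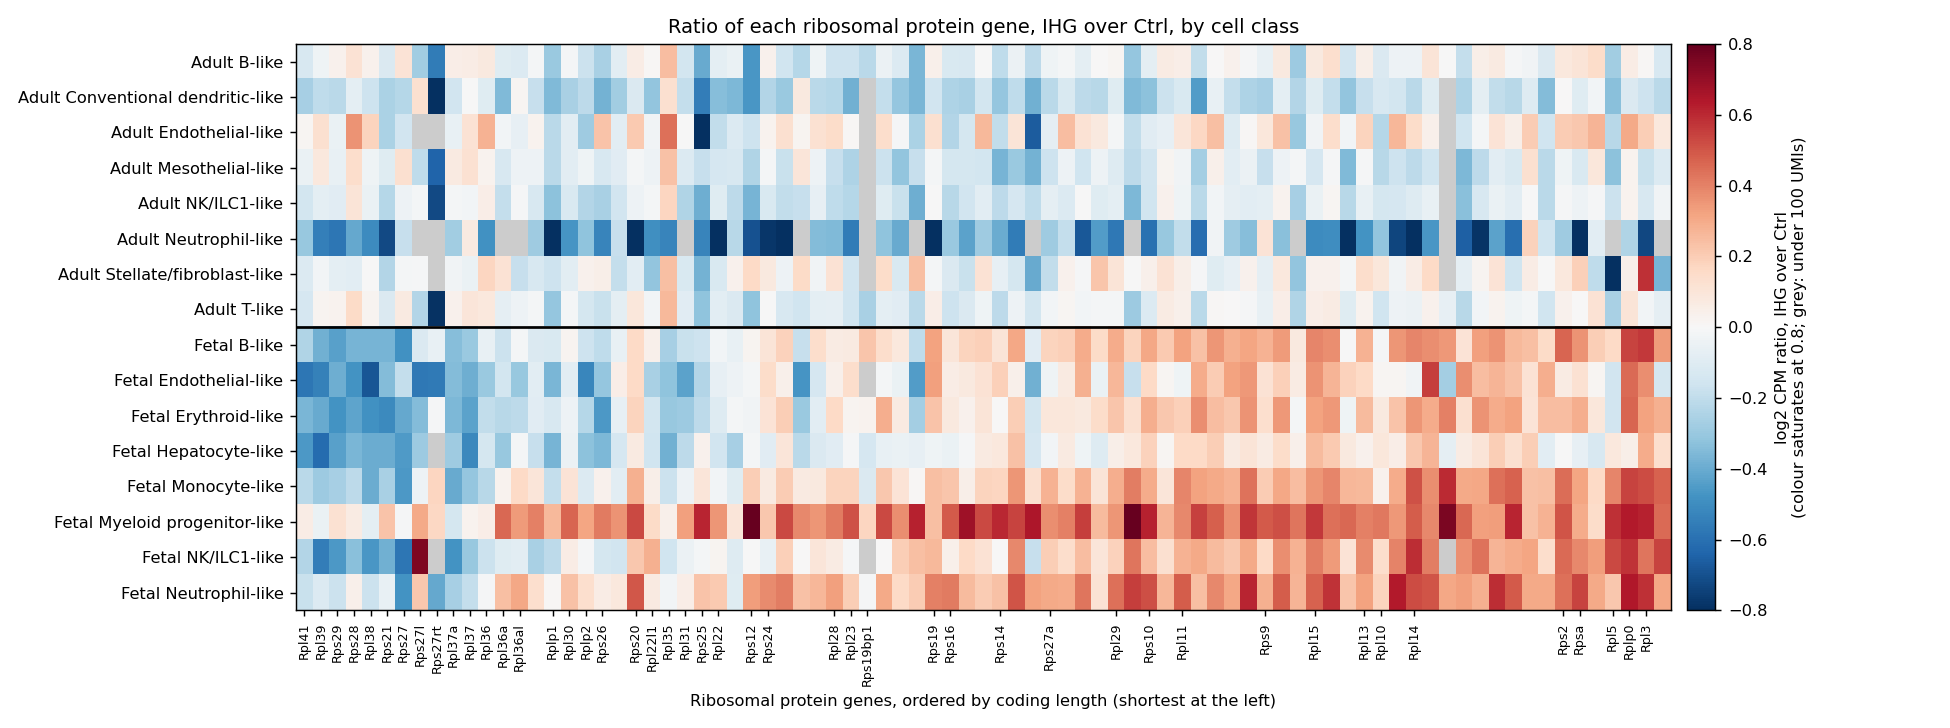
Log2 ratio of CPM, IHG over Ctrl, of each member (columns, ordered by coding length from short at the left to long at the right) in each class (rows, adult above fetal). Symbols are printed for members named in the text. Grey marks under 100 UMIs over both libraries, and colours saturate at 0.8. Fetal rows turn from lower in IHG at the left to higher in IHG at the right, while adult rows show no such turn.

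Member by member, a smaller part of the members than of all genes passed 1.5-fold between fetal IHG and Ctrl. The shares over all genes are not matched to the members on level. Most members hold far more UMIs than the minimum of 20, so these shares do not show that the members were the more stable. In fetal B-like cells, 56 of 85 members (those with 20 or more UMIs in the pair of libraries) were higher in IHG and 29 lower, with a median log2 ratio of 0.14, against 0.20 over all 11295 genes with as many UMIs. Only 1 member, Rpl3l with 42 and 34 UMIs, was at least 1.5-fold higher and 0 at least 1.5-fold lower, where 16.9% and 8.08% of all genes were. Median-of-ratios scaling, which moves all genes down by 0.21 in this class, gave 31 higher and 54 lower. In fetal erythroid-like cells, 49 of 84 members were higher in IHG and 35 lower (21 and 63 with that scaling), with a median of 0.08, against 0.20 over all genes. There 0 members were at least 1.5-fold higher and 1, Rpl39l, at least 1.5-fold lower, against 16.3% and 3.87% of all genes. In fetal neutrophil-like cells 70 of 84 were higher (53 with that scaling), with 4 at least 1.5-fold higher and 0 as much lower (18.8% and 7.37% of all genes). In myeloid progenitor-like cells 79 of 84 were higher (53 with that scaling), with 12 at least 1.5-fold higher and 1 as much lower (35.3% and 6.74% of all genes). The medians of 0.28 and 0.39 in these classes stood beside medians over all genes of 0.24 and 0.39. The members' medians thus lay below, or close to, those of all genes.

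The other fetal classes stayed near the middle. In monocyte-like cells 64 of 83 members were higher in IHG (40 with median-of-ratios scaling), with 1 at least 1.5-fold higher and 0 as much lower, where 20.1% and 6.8% of all genes were. In NK/ILC1-like cells 56 of 83 were higher (39 with that scaling), with 3 past 1.5-fold upward and 0 downward (29.6% and 9.21% of all genes). In endothelial-like cells 42 of 83 were higher (28 with that scaling), with 0 past 1.5-fold upward and 1 downward (28.7% and 11.4%). Hepatocyte-like cells had the fewest members higher in IHG, 37 of 83 (11 with that scaling and 3 without haemoglobin, mitochondrial and ribosomal protein genes in the total), with 0 past 1.5-fold upward and 1 downward (27.2% and 12.4%). Their lowest members were Rpl39 (2723 CPM in IHG and 4177 CPM in Ctrl), Rpl37 (2518 and 3597) and Rpl41 (4064 and 5583). Over all kept fetal cells 68 of 85 were higher, with 0 past 1.5-fold upward and 1 downward (40.2% and 5.61%).

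The members that lay lowest in fetal IHG were small proteins. Rps27, a zinc-finger protein of the small subunit, had 2522 CPM in IHG and 3525 CPM in Ctrl in fetal B-like cells (log2 -0.48, interval -0.51 to -0.46), 1356 and 1864 CPM in monocyte-like cells, 1062 and 1454 CPM in hepatocyte-like cells, 704 and 934 CPM in erythroid-like cells and 403 and 562 CPM in neutrophil-like cells. It was the lower in IHG in all 8 classes, though in myeloid progenitor-like cells the values were 1189 and 1196 CPM. Rpl38, Rpl39 and Rpl37a, all small proteins of the large subunit, were also lower in IHG in all 8 classes, with median log2 ratios over classes of -0.40, -0.39 and -0.35. When the total left out haemoglobin, mitochondrial and ribosomal protein genes, Rpl37a kept this direction in 8 of 8 classes and Rps27, Rpl38 and Rpl39 in 7. In erythroid-like cells the lowest members were Rps21 (1083 CPM in IHG and 1540 CPM in Ctrl), Rpl38 (1186 and 1659), Rps29 (2106 and 2932) and Rps26 (1441 and 1979).

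Several of the members that lay highest in fetal IHG encode longer proteins. Rpl3, which lies by the peptidyl transferase centre, had 3161 CPM in IHG and 2136 CPM in Ctrl in fetal B-like cells (log2 0.57, interval 0.54 to 0.59), and it was the higher in IHG in 8 of 8 classes under each of the 3 scalings. Rplp0, the base of the stalk that recruits translation factors, had 6985 and 4812 CPM in B-like cells, 5909 and 4069 CPM in monocyte-like cells, 4819 and 3109 CPM in myeloid progenitor-like cells, 4100 and 2972 CPM in erythroid-like cells, 3181 and 3075 CPM in hepatocyte-like cells and 1051 and 673 CPM in neutrophil-like cells. It was the higher in IHG in 8 of 8 classes in CPM and in 7 of 8 under the other scalings. Rps2 (7463 and 5408 CPM in B-like cells), Rpl14 (2597 and 1983) and Rpl15 (4065 and 3107) lay on the same side. In myeloid progenitor-like cells the highest members were shorter. They were Rpl12 (1244 CPM in IHG and 694 CPM in Ctrl, 495 coding bases) and Rps12 (4455 and 2535 CPM, 396 coding bases). Over all 8 fetal classes, 27 of the 80 members with at least 100 UMIs in each were higher in IHG in every class and 4 lower in every class. Median-of-ratios scaling changed these counts to 6 and 16, and the total without haemoglobin, mitochondrial and ribosomal protein genes to 2 and 1. The same counts over all genes are not given here, and 63.3% to 74.1% of all genes were higher in IHG in each fetal class on CPM. Whether the members differ from other genes in this was not tested. The 8 classes share the same 2 libraries, so they do not count as 8 observations.

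**Figure D5:**
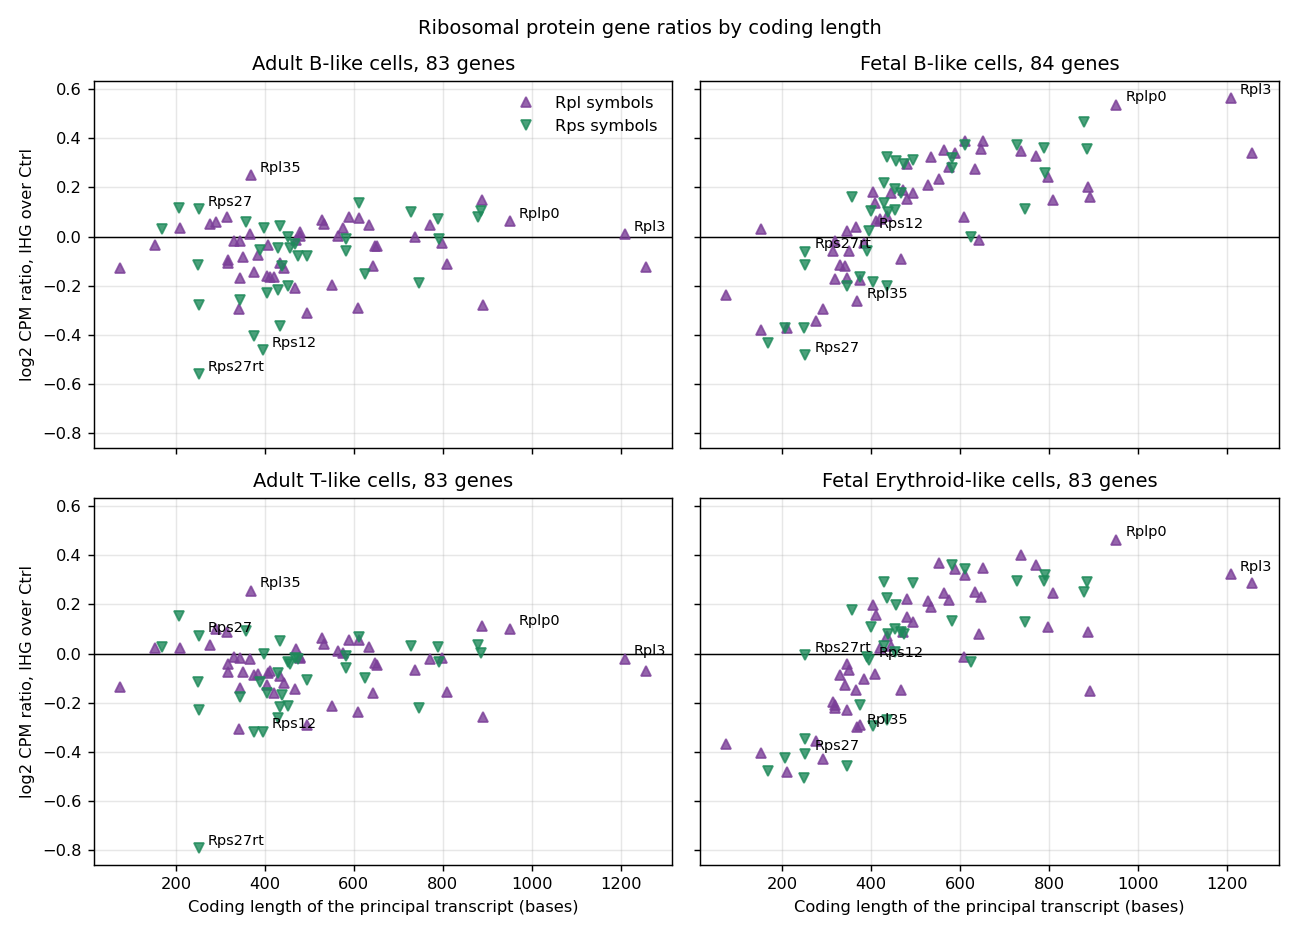
Log2 ratio of CPM, IHG over Ctrl (y axis), against coding length in bases (x axis) for members with at least 100 UMIs, in adult B-like and T-like cells at the left and fetal B-like and erythroid-like cells at the right. Purple upward triangles are large subunit and green downward triangles small subunit members. The ratio climbs with coding length in the fetal panels (Spearman 0.82 and 0.80 over members) and not in the adult ones.

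This split by size held across members. Coding length was looked at after these ratios had been seen. The 4 members lower in every fetal class have coding sequences of at most 276 bases, and the shortest among the 27 higher in every class has 357. In fetal B-like cells the median log2 ratio was -0.14 over the members of up to 400 coding bases (6 of 30 higher in IHG), 0.19 over those of 401 to 700 (34 of 39) and 0.34 over longer ones (15 of 15). In fetal erythroid-like cells the medians were -0.22 (2 of 29), 0.15 (33 of 39) and 0.29 (14 of 15). The split was weaker in fetal neutrophil-like cells, with medians of 0.05 (17 of 29), 0.31 (38 of 39) and 0.32 (15 of 16). In fetal myeloid progenitor-like cells they were 0.23 (25 of 29), 0.48 (39 of 39) and 0.45 (15 of 15). As a description across members, which share libraries and depth, Spearman's correlation of the ratio with coding length was 0.82 in fetal B-like cells (84 members), 0.83 in monocyte-like cells (83), 0.80 in erythroid-like cells (83), 0.64 in neutrophil-like cells (84) and 0.46 in myeloid progenitor-like cells (83). No choice of total can alter these correlations, since it shifts all members alike.

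Other genes of the same cells showed the relation too. Over non-ribosomal genes of at least 200 CPM it was 0.47 in fetal B-like cells (554 genes) and 0.42 in erythroid-like cells (244 genes). Within the 21 fetal clusters with enough cells it lay between 0.46 and 0.85 over the members, and in cells thinned to 1000 UMIs it was above 0 in 8 of 8 classes (0.27 to 0.81). Against the members' mean level in place of length, the correlations lay between -0.07 and 0.37 in fetal classes and between -0.004 and 0.55 in adult ones. In adult classes the correlation with coding length lay between -0.20 and 0.18 over the members and between -0.25 and 0.02 over other genes. Fragment size and RNA integrity were not measured in these files, so their part was not tested, and a difference of preparation between the 2 fetal libraries cannot be told apart from IHG. Median depth per cell, 9709 UMIs in fetal IHG and 7402.5 in fetal Ctrl, moved with the same pair of libraries. Of 8 dissociation-induced immediate-early genes, 0 were higher and 8 lower in IHG in fetal B-like cells (median log2 -1.82), and 5 were higher and 3 lower in erythroid-like cells (median 0.14). Their part in the relation was not tested.

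Adult IHG and Ctrl differed less. In adult B-like cells 30 of 83 members were higher in IHG and 53 lower (52 and 31 with median-of-ratios scaling), with a median of -0.04, against -0.09 over all genes, and 0 were 1.5-fold higher or lower, where 3.46% and 6.42% of all genes were. In adult T-like cells 26 of 83 were higher and 57 lower, with 0 at least 1.5-fold higher and 1 as much lower (4.57% and 5.31% of all genes). That member was Rps27rt, with 158 CPM in IHG and 274 CPM in Ctrl. Over all kept adult cells 36 of 84 were higher, with 0 past 1.5-fold in either direction (3.31% upward and 16.7% downward of all genes).

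Conventional dendritic-like cells leaned further, with 6 of 83 members higher in IHG and 77 lower and a median of -0.21, against 0.04 over all genes, and 0 were past 1.5-fold upward and 1 downward (11.1% and 8.7% of all genes). In NK/ILC1-like cells 8 of 83 were higher, with 0 past 1.5-fold upward and 1 downward (6.54% and 7.08%). In mesothelial-like cells 14 of 83 were higher, with 1 upward and 1 downward (11.6% and 14.2%). Stellate/fibroblast-like cells had 34 of 81 higher (64 with median-of-ratios scaling), with 1 upward and 2 downward (18.1% and 18.2%). Endothelial-like cells alone had more members higher than lower, 44 of 81, with 0 upward and 3 downward (15% and 19%). Over all 8 adult classes, 0 of 69 members were higher in IHG in every class and 14 lower in every class (5 with median-of-ratios scaling). The same counts over all genes are not given here, and 35.4% to 54.0% of all genes were higher in IHG in each adult class.

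A few adult members kept their side in nearly every class. Rps25, a small subunit protein needed for some forms of internal initiation, had 1019 CPM in IHG and 1350 CPM in Ctrl in adult B-like cells (log2 -0.41), 948 and 1184 CPM in T-like cells, 665 and 873 CPM in NK/ILC1-like cells and 858 and 1259 CPM in conventional dendritic-like cells. It was the lower in IHG in 8 of 8 classes under each of the 3 scalings, as were Rplp1 and Rps21. Rps12 was the lower in 7 of 8, with 1521 CPM in IHG and 2096 CPM in Ctrl in B-like cells. Rpl35, at the exit of the tunnel for the growing chain, was the higher in 7 of 8 under each scaling, with 4612 CPM in IHG and 3879 CPM in Ctrl in B-like cells and 4563 and 3819 CPM in T-like cells. In the fetal classes Rpl35 lay on the other side in 7 of 8, with 2158 CPM in IHG and 2432 CPM in Ctrl in monocyte-like cells, and Rps25 was the higher in 4 and the lower in 4.

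The adult neutrophil-like class held the widest member differences, on few counts. There 78 of 81 members were lower in IHG, with 27 at least 1.5-fold lower and 0 as much higher (17.3% and 8.74% of all genes), and the median was -0.48, against -0.09 over all genes. Rps20 had 460 CPM in IHG and 1043 CPM in Ctrl (88 and 351 UMIs, log2 -1.18, interval -1.54 to -0.84), Rpsa had 376 and 725 CPM, and Rps19 had 308 and 588 CPM. Rps9, the member that marks this class, had 3411 CPM in IHG and 3158 CPM in Ctrl. Thinning every cell to 1000 UMIs lowered the 27 members to 9, and the class share ratio was then -0.23 in place of -0.39. Cells of this class had a 95th percentile share of 7.83% in IHG and 14.0% in Ctrl, so a tail of Ctrl cells with a high share moved with the difference. Its part in the result was not tested.

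By role, the stalk proteins did not move together. Rplp0 was the higher in fetal IHG while its partners Rplp1 (2661 CPM in IHG and 2893 CPM in Ctrl in B-like cells) and Rplp2 (2679 and 3009 CPM) were lower, and this held in 6 of 8 fetal classes. Rplp0 has 951 coding bases and Rplp1 and Rplp2 have 342 and 345, so they fall on the 2 sides of the length split above. The part of length was not tested. Of the 20 genes listed for Diamond-Blackfan anaemia, 9 were higher in IHG and 11 lower in fetal erythroid-like cells, with a median of -0.05. In that class 49 of 84 members and 72.3% of all genes were higher, with medians of 0.08 and 0.20. Among the 20 genes Rps19, the one most often mutated in people with the disease, had 2048 CPM in IHG and 1751 CPM in Ctrl there. Rps26 had 1441 and 1979 CPM. In adult neutrophil-like cells all 20 were lower in IHG, 5 of them at least 1.5-fold, where 27 of 81 members and 17.3% of all genes were as much lower. The binders of Mdm2, through which free ribosomal proteins stabilise p53, gave 3 of 3 higher in fetal B-like cells, where 56 of 85 members and 68.2% of all genes were higher. Rpl11 had 5146 CPM in IHG and 4112 CPM in Ctrl there, Rpl5 820 and 734 CPM and Rpl23 5746 and 5473 CPM. The listed p53 target genes gave 4 of 9 higher and 5 lower in the same cells.

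Some genes of the ribosome lie outside the symbol rule. Fau, ubiquitin-like fused to a small subunit protein, had 5928 CPM in IHG and 6108 CPM in Ctrl in fetal B-like cells and 11190 and 10772 CPM in adult ones. Rack1, the small subunit's signalling scaffold, had 1298 CPM in IHG and 1197 CPM in Ctrl in fetal B-like cells and 810 and 984 CPM in adult ones.

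Lists of related genes give the setting of these values. Of 30 ribosome biogenesis genes, 27 were higher in IHG in fetal B-like cells, 8 of them at least 1.5-fold, with a median of 0.43, where 68.2% of all genes were higher and 16.9% at least 1.5-fold higher. Ncl, nucleolin, had 1258 CPM in IHG and 845 CPM in Ctrl. The list's medians were 0.90 in fetal myeloid progenitor-like cells (30 of 30 higher) and 0.24 in erythroid-like cells (24 of 30), and -0.10 in adult B-like cells (4 of 30). Of 78 mitochondrial ribosomal protein genes, 72 were higher in IHG in fetal B-like cells (median 0.25), 41 in erythroid-like cells (0.00) and 33 in adult B-like cells (-0.03). Of 17 listed elongation factors and other TOP mRNAs, 15 were higher in fetal B-like cells, among them Eef1a1 with 3714 CPM in IHG and 2922 CPM in Ctrl and Npm1, a nucleolar chaperone, with 3241 and 2172 CPM, 13 in erythroid-like cells and 5 in adult B-like cells. All of these counts stand on CPM, on which 72.3% of all genes were higher in IHG in fetal erythroid-like cells, 74.1% in myeloid progenitor-like cells and 35.4% in adult B-like cells. The medians over all genes were 0.20 in fetal B-like and erythroid-like cells, 0.39 in myeloid progenitor-like cells and -0.09 in adult B-like cells. Regulators of ribosomal protein mRNA, among them Myc and Larp1, gave 6 of 11 higher in fetal B-like cells and 1 of 10 in adult B-like cells, and cell cycle genes 5 of 11 and 1 of 6.

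Adult and fetal cells were set side by side in the 4 classes found at both ages, separately for IHG and Ctrl. These comparisons use the same libraries as those above, and age cannot be told apart from perfusion, dissociation, depth or the stage of the cells. Of 11 cell cycle genes, 0 were higher in adult than in fetal B-like cells. Their median log2 ratios were -6.92 in IHG and -5.57 in Ctrl, against -0.41 and -0.16 over all genes. In neutrophil-like cells 1 of 11 was higher in each pair, with medians of -4.11 and -3.64 (0.46 and 0.61 over all genes). The part of cell stage was not tested. The ribosomal protein share of B-like cells was 29.8% in adult IHG and 30.6% in fetal IHG, and 30.1% in adult Ctrl and 28.3% in fetal Ctrl. Endothelial-like cells had 23.9% in adult IHG and 24.1% in fetal IHG, and 23.1% in adult Ctrl and 23.9% in fetal Ctrl. NK/ILC1-like cells had 22.6% in adult IHG and 29.1% in fetal IHG, and 24.1% in adult Ctrl and 27.0% in fetal Ctrl. Neutrophil-like cells had 5.02% in adult IHG and 4.49% in fetal IHG, and 6.59% in adult Ctrl and 3.76% in fetal Ctrl. NK/ILC1-like cells thus had the lower and neutrophil-like cells the higher share in adults in both pairs, while B-like cells gave opposite directions. Haemoglobin in the fetal classes was the higher in Ctrl, as given above, and without haemoglobin and mitochondrial genes the B-like adult over fetal log2 ratio was -0.07 in IHG and -0.02 in Ctrl, the same direction. The NK/ILC1-like and neutrophil-like directions were as before on that total, at -0.38 and 0.14 in IHG and at -0.29 and 0.77 in Ctrl.

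Members differed more by age than by IHG. In B-like cells 9 of 85 members were at least 1.5-fold higher in adult than in fetal IHG and 19 at least 1.5-fold lower, where 26.4% and 45.7% of all genes were. In Ctrl the counts were 7 and 11, beside 30.8% and 39.7% of all genes. In neutrophil-like cells 15 of 84 were at least 1.5-fold higher and 21 lower in IHG (46.5% and 25.1% of all genes), and 50 and 2 in Ctrl (51% and 24.6%). In NK/ILC1-like cells 6 of 83 were higher and 42 lower in IHG (32.6% and 32.7%), and 2 and 14 in Ctrl (40.4% and 24.1%). Endothelial-like cells gave 6 and 8 of 83 in IHG (20.5% and 36.7%) and 2 and 6 in Ctrl (32.5% and 31.1%).

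Rps27 showed the largest median age difference among the members higher in adults in all 8 comparisons of class and pair. Its near copy Rps27rt, with values in 7 of them, had a median log2 ratio of 1.62. Rps27 had 9765 CPM in adult IHG B-like cells and 2522 CPM in fetal IHG ones, and 9040 CPM in adult Ctrl and 3525 CPM in fetal Ctrl ones (log2 1.95 and 1.36). Its paralog Rps27l lay on the other side in B-like cells, with 104 CPM in adult IHG and 461 CPM in fetal IHG B-like cells, and 126 CPM in adult Ctrl and 499 CPM in fetal Ctrl ones. Over the 8 comparisons its log2 ratio ran from -2.15 to 0.66, and in Ctrl neutrophil-like cells it was the higher in adults, with 107 CPM in adult Ctrl (36 UMIs) and 68.7 CPM in fetal Ctrl. Over the 4 classes and both pairs, 9 of 80 members were higher in adults each time, namely Rps27, Rps28, Rpl37a, Rpl38, Rps29, Rpl37, Rpl30, Rps21 and Rpl36, with median log2 ratios of 0.38 to 1.43. Among those lower in adults each time were Rpl28, Rpl36al and Rpl31, with medians of -0.86, -0.55 and -0.34. How many of all genes kept one side each time is not given here. Rpl28 had 2194 CPM in adult IHG B-like cells and 5124 CPM in fetal IHG ones. The age ratio also went with coding length, with Spearman correlations over members of -0.37 to -0.56 in IHG and -0.16 to -0.32 in Ctrl, the short members lying higher in adults. The fetal IHG library enters both these age ratios and the fetal ratios of IHG over Ctrl above, and the difference between the IHG and Ctrl pairs was not tested.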

How the data were processed

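The deposited values are raw UMI counts per gene and cell barcode for 4 libraries. Per the file headers, the software that wrote them was Cell Ranger 5.0.0. The submitters' processing notes name the build mm10, Cell Ranger and Seurat, and give Seurat no step. The deposited totals were 19366065 UMIs in 6851 barcodes for adult IHG, 17987173 in 5245 for adult Ctrl, 105382968 in 8739 for fetal IHG and 77874423 in 8500 for fetal Ctrl. Whether the counting used introns or strand, and the version of the gene annotation, are not given in the sources used here.

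Barcodes needed 300 or more genes and no more than 25% mitochondrial UMIs. In the fetal libraries, doublets were those past Scrublet's automatic threshold (267 in IHG, 107 in Ctrl). In the adult libraries that threshold marked under 0.5%, so scores above the 95th percentile were removed (286 in IHG, 244 in Ctrl). Both libraries of an age entered 1 clustering on log counts per 10000 with 2000 variable genes, 30 components, 15 neighbours and Leiden resolution 1.0, leaving out ribosomal protein, mitochondrial and listed genes, and clusters were named from 142 markers of 19 classes. Clusters that met no naming rule stayed unnamed. Tools were Python 3.11.15, scanpy 1.11.5, leidenalg 0.10.2, igraph 0.11.9, pandas 2.3.3, scipy 1.17.1, numpy 2.4.6, matplotlib 3.10.9 and scikit-learn 1.9.0.

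UMIs were summed per library and class with at least 30 cells. Shares carry Clopper-Pearson intervals and ratios exact conditional Poisson intervals, both at 95%. Member ratios are on the log2 scale of CPM with 0.5 added to each count, for genes with at least 20 UMIs over both libraries, and 1.5-fold is a size, not a test. Ratios were checked on simulated counts. The genes named are up to 6 highest and lowest members of a class with at least 100 UMIs, the 5 most abundant per library, paralogs, members of the stalk, Mdm2-binder and anaemia lists, and up to 4 genes of each other list. A few genes that this rule names are not reported here. Members and lists were chosen with earlier results of these data known. Coding lengths are those of the principal GENCODE M21 transcript of each of the 86 members, and starts are from RefSeq on GRCm38.p6. The alternatives were other totals and scalings, a mitochondrial limit of 10%, thinning to 1000 UMIs (leaving out 299 adult IHG, 238 adult Ctrl, 417 fetal IHG and 253 fetal Ctrl cells), doublets kept, resolution 0.5, separate clustering, no haemoglobin-rich cells and other member minimums.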

Additional observations from a re-analysis of the deposited data

Results flagged for a closer look

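Of the classes found at both ages, 3 had a ribosomal protein share that was lower in adult IHG than in adult Ctrl and higher in fetal IHG than in fetal Ctrl. The adult log2 ratio minus the fetal one was -0.13 for B-like cells, -0.20 for NK/ILC1-like cells and -0.65 for neutrophil-like cells. With 1 library per group these differences between the ages were not tested. Without haemoglobin and mitochondrial genes in the total the fetal ratios were 0.02 for B-like cells, -0.01 for NK/ILC1-like cells and 0.22 for neutrophil-like cells.

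Pseudogene symbols written with -ps, which the rule leaves out, still had UMIs. They held 1402 in adult IHG, 1544 in adult Ctrl, 6999 in fetal IHG and 4392 in fetal Ctrl, equal to 0.0278%, 0.0340%, 0.0358% and 0.0350% of the ribosomal protein UMIs in that order. Reads of a parent gene and its near-identical copy cannot be told apart.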

How the results depend on the processing

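All values here are log2 ratios of ribosomal protein shares, IHG over Ctrl, unless named otherwise, and for the values that turned or moved the cause was not tested except where the setting itself changes the total or the cells. In the main comparisons 43 settings left the value within its counting interval or count range, 56 moved it and 10 turned its direction, and in the other classes and pairs the numbers were 24, 25 and 12. Without haemoglobin and mitochondrial genes in the total, the fetal library ratio was -0.08, with B-like 0.02, endothelial-like -0.06, erythroid-like -0.05, myeloid progenitor-like 0.37, NK/ILC1-like -0.01 and neutrophil-like cells 0.22. In adults it was 0.02 for the library, -0.03 for B-like and -0.03 for T-like cells. With at most 10% mitochondrial UMIs, the fetal values were 0.22 for the library, 0.10 for B-like, 0.06 for erythroid-like and 0.01 for hepatocyte-like cells.

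In cells thinned to 1000 UMIs, the fetal values were -0.08 for the library, 0.10 for B-like, -0.08 for erythroid-like, 0.29 for myeloid progenitor-like and 0.27 for neutrophil-like cells. The adult ones were 0.02 for the library, 0.01 for B-like, -0.06 for endothelial-like, -0.23 for neutrophil-like, 0.01 for stellate/fibroblast-like and -0.07 for T-like cells. With doublets kept, the fetal values were 0.22 for the library, 0.12 for B-like, -0.05 for endothelial-like, 0.48 for erythroid-like, 0.01 for hepatocyte-like, 0.43 for myeloid progenitor-like and -0.04 for neutrophil-like cells. The adult ones were 0.03 for the library, -0.01 for B-like, -0.05 for endothelial-like and -0.54 for neutrophil-like cells. Resolution 0.5 gave -0.03 for endothelial-like, 0.04 for erythroid-like, 0.43 for myeloid progenitor-like and 0.21 for neutrophil-like cells in fetuses and -0.04 for T-like cells in adults.

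Clustering each library by itself gave 0.11 for B-like, 0.14 for erythroid-like, 0.07 for myeloid progenitor-like and -0.30 for neutrophil-like cells in fetuses, and 0.11 for mesothelial-like, 0.04 for stellate/fibroblast-like and 0.01 for T-like cells in adults. Without haemoglobin-rich cells the fetal values were 0.01 for B-like, -0.06 for endothelial-like and 0.25 for neutrophil-like cells. The mean over clusters, chosen after seeing the data as was the coding length split, gave 0.14 for B-like, 0.07 for erythroid-like and 0.15 for neutrophil-like cells in fetuses, and -0.03 for B-like and -0.06 for T-like cells in adults.

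Counts of members higher in IHG were 52 in adult B-like, 5 in adult neutrophil-like, 31 in fetal B-like and 21 in fetal erythroid-like cells under median-of-ratios scaling, in place of 30, 3, 56 and 49. In adult neutrophil-like cells the count was 6 with members of at least 1 UMI and 11 in thinned cells, where 9 in place of 27 were at least 1.5-fold lower, and in adult T-like cells it was 14 in thinned cells in place of 26. Members at least 1.5-fold higher in fetal myeloid progenitor-like cells numbered 0 under median-of-ratios scaling, 33 on the total without haemoglobin, mitochondrial and ribosomal protein genes and 6 in thinned cells, in place of 12. The adult over fetal ratio of B-like cells was -0.07 in IHG and -0.02 in Ctrl without haemoglobin and mitochondrial genes, and 0.10 and 0.18 in thinned cells. For neutrophil-like cells it was 0.77 in Ctrl without those genes, and 0.26 in IHG and 0.76 in Ctrl in thinned cells. Without the paralogs the large over small subunit ratio was 1.155 in adult IHG, 1.169 in adult Ctrl, 1.169 in fetal IHG and 1.216 in fetal Ctrl.

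No paired analysis was possible because each group is 1 library. Adult depth, with medians of 2220.5 and 2514 UMIs per cell, limits members of adult neutrophil-like, endothelial-like and stellate/fibroblast-like cells most. Single counts there carry wide intervals.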
